A study of Mus musculus with 2 samples.

Results

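Replication-dependent histone genes were followed across the cell types of the embryonic mouse eye. Members were the genes whose symbol starts with Hist, a cluster number and h (Hist1h, Hist2h and so on) and that had at least 20 UMIs, or unique molecular identifiers (1 per captured RNA molecule), summed over both libraries. Of 32285 genes in the count matrices, 67 symbols matched and 63 passed. They comprised 6 genes for the linker histone H1 and, for the core histones, 16 genes for H2A, 16 for H2B, 12 for H3 and 13 for H4. Hist1h1t, the testis H1, passed narrowly with 13 UMIs in one library and 11 in the other, and the best covered gene left out, Hist1h2bq, had 2 and 5. The symbols Hist2h2aa2 (4 UMIs in all), Hist1h2ba (1) and Hist1h2aa (0) were also left out.

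The cells came from eye cups of mouse embryos at E17.5 and were profiled with droplet-based 3′ single-cell RNA sequencing. Homozygous Myrf humWT/humWT embryos, in which a human exon replaces the last exon of mouse Myrf, were the controls. Homozygous Myrf humdG/humdG embryos, which do not survive to birth, carry the same human exon with the dG variant, a frameshift near the C terminus of MYRF, a membrane-bound transcription factor active in the retinal pigment epithelium (RPE). According to the labels 3 eye cups were pooled per genotype with cornea, lens and optic nerve removed, whereas the methods of the study count more eyes and leave the cornea on, and no treatment was given. Each genotype was 1 pooled library, so the difference between genotypes and the difference between libraries cannot be told apart. No p-value is given, and intervals, all at 95%, describe the error of counting alone.

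Histones package DNA: pairs of H2A, H2B, H3 and H4 form the core of the nucleosome, and H1 binds the linker between cores. The replication-dependent genes lack introns, lie in clusters and are transcribed mainly in S phase, when new DNA has to be packaged. Their mRNAs usually end in a conserved stem-loop bound by the stem-loop binding protein SLBP, rather than in a poly(A) tail, although some members also make polyadenylated forms. Oligo(dT)-primed libraries like these capture such mRNAs incompletely, so the levels given are those of captured molecules and not of all histone mRNA. In the late embryonic retina, dividing progenitors lie beside neurons that have left the cell cycle.

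The stem-loop shows how alike the members are at the end by which they are normally processed. The sequences are read from the GENCODE M21 transcripts of GRCm38, with the 16-base stem-loop in capitals and its neighbouring bases in lower case.
Hist1h2ap: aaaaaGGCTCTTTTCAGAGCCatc
Hist1h1e: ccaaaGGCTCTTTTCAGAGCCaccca
Hist1h3e: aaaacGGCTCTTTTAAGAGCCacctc
Hist1h4d: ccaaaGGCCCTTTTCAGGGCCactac
Hist3h2ba: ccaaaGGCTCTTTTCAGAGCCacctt
Hist1h2ap, the H2A gene with most UMIs, has its stem-loop at chr13:21833029-21833044 on the minus strand, 38 bases after the stop codon, and its annotated transcript ends 3 bases later. Hist1h1e, the H1 gene with most UMIs, carries the same 16 bases at chr13:23621782-23621797 on the minus strand, but its annotated transcript runs on for 1153 bases. In Hist1h3e (chr13:23561903-23561918, minus strand) the transcript continues for 369 bases, in Hist1h4d (chr13:23581950-23581965, plus strand) for 770 bases and in Hist3h2ba (chr11:58949349-58949364, plus strand) for 169 bases. All 5 are single-exon genes with the stem-loop after the coding sequence.

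A stem-loop of this kind was found in 46 of the 67 family transcripts (68.7%) and in 113 of 21834 other genes with a coding transcript (0.518%). The commonest form, carried by Hist1h2ap, Hist1h1e and Hist3h2ba, was shared by 26 genes. The form of Hist1h4d was found in 7 genes, all for H4, and that of Hist1h3e in 6. The other forms occurred in 1 or 2 genes each. Among the members, 21 annotated transcripts ended within 60 bases of the stem-loop, 24 ran further and 18 held no stem-loop within the annotated transcript, among them Hist1h1b and Hist1h2bl.

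Copies of these genes are hard to tell apart. The 13 H4 genes encode 1 identical protein of 103 residues, and 9 of the 18 H2A genes of the family encode an identical protein of 130 residues. Reads that fit several copies may have been dropped or split between them, so single values are uncertain for close copies. For each transcript, the share of its 90-base windows also present in another family gene was computed. This share was 92.4% for Hist1h2ap, 92.8% for Hist1h2ao, 66.8% for Hist1h2bl and 50.2% for Hist1h3e, against 26.2% for Hist1h1e, 0.858% for Hist1h4d and 0 for Hist1h1b and Hist3h2ba. Of the 63 members, 25 shared at least 50% of their windows and 16 shared at most 10%.

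Promoter sequence is shown for the H4 gene with most UMIs, which was highest in neurogenic-like cells in both libraries, and for Hist3h2ba, which was highest in amacrine and horizontal-like cells. RefSeq (GRCm38.p6) gave promoters for 61 of the 67 family genes. The 250 bases before the RefSeq start are printed, chr13:23581318-23581567 for Hist1h4d and chr11:58948661-58948910 for Hist3h2ba, both on the plus strand. Capitals mark 3 motifs on either strand: the TATA motif TATAAA, the box CCAAT, and CCGCCC, a core of GC boxes.
Hist1h4d: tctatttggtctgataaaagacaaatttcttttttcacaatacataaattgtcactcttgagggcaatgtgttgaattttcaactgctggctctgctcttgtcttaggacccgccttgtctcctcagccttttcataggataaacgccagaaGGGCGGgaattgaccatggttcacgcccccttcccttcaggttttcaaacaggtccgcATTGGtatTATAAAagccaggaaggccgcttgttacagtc
Hist3h2ba: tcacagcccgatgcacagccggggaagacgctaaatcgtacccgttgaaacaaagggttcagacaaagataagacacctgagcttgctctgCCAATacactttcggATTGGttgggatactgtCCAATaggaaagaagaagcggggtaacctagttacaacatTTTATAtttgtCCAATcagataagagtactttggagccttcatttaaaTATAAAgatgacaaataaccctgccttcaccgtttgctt
Counted over 300 bases (250 before and 50 after the start) on either strand, TATAAA was present in 57.4% of the 61 promoters and in 13.5% of 32788 others, and CCAAT in 85.2% and 37.3%. CCGCCC was as frequent in the family (37.7%) as elsewhere (35.7%). These are matches of letters and say nothing on binding.

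After filtering, 16166 humWT and 18173 humdG cells were kept, with a median of 3785 and 2624 UMIs and of 1433 and 1196 genes per cell. The study reports fewer cells with a higher median of genes in each genotype, and the cause of this gap was not tested. A total of 102 cell barcodes occurred in both libraries, and 86 of these among kept cells. In the deposited matrices the members held 764114 of 129135207 UMIs in humWT (0.592%) and 1428796 of 114319529 in humdG (1.25%). Levels below are member UMIs per 1000000 UMIs of a class (CPM), summed over its cells and not scaled by gene length, so they compare classes and genotypes rather than genes. Classes were named by marker genes, with the histone genes left out of the clustering, and in each named cluster the markers of other classes among the 10 leading genes were no more numerous than its own. Of the clusters named, 1 mesenchyme-like and 1 RPE-like cluster had no marker of any class among those 10 genes, and another mesenchyme-like cluster had 1 of its own and 1 of another class. A large cluster of 12146 cells led by Cdk8, Sncg and rRNA-linked genes stayed unnamed, as did 2 smaller ones. The 10 leading genes of the large cluster included Sncg and Pou4f1, both on the marker list for retinal ganglion cells. No cluster was named retinal ganglion cell-like. With finer clustering (resolution 1.0) a cluster of 845 cells was. Nrxn3, Anks1b, Rasgef1b and Ptprt were among its leading genes, as they are in the amacrine and horizontal-like cluster here.

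The highest levels were found in the progenitor classes of the retina. In humWT, members reached 18633 CPM (18486 to 18782) in neurogenic-like cells, which express Atoh7, Neurog2 and other genes of progenitors about to differentiate, and 17112 CPM (17047 to 17178) in retinal progenitor-like cells, which express Sfrp2. In humdG the same classes held 24594 CPM and 22669 CPM. Both lay above the other named classes in each library. The large unnamed cluster came next, with 10161 CPM and 18050 CPM, and in it rRNA-linked genes held 283447 CPM and 190021 CPM.

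Among the named classes, next in humWT were pericyte-like cells with 7188 CPM, neural crest and glia-like cells with 5577 CPM, muscle-like cells with 5086 CPM and photoreceptor precursor-like cells with 4708 CPM. White blood cell-like cells held 3945 CPM, cartilage-like cells 3717 CPM, blood vessel-like cells 2985 CPM, RPE-like cells 2865 CPM and amacrine and horizontal-like cells 2760 CPM. The lowest named classes were surface epithelium-like cells with 2298 CPM, red blood cell-like cells with 2179 CPM and mesenchyme-like cells with 2118 CPM. The classes at the bottom of this order thus lay close together: the intervals of surface epithelium-like (2222 to 2376) and red blood cell-like cells (2119 to 2242) overlapped.

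**Figure D1:**
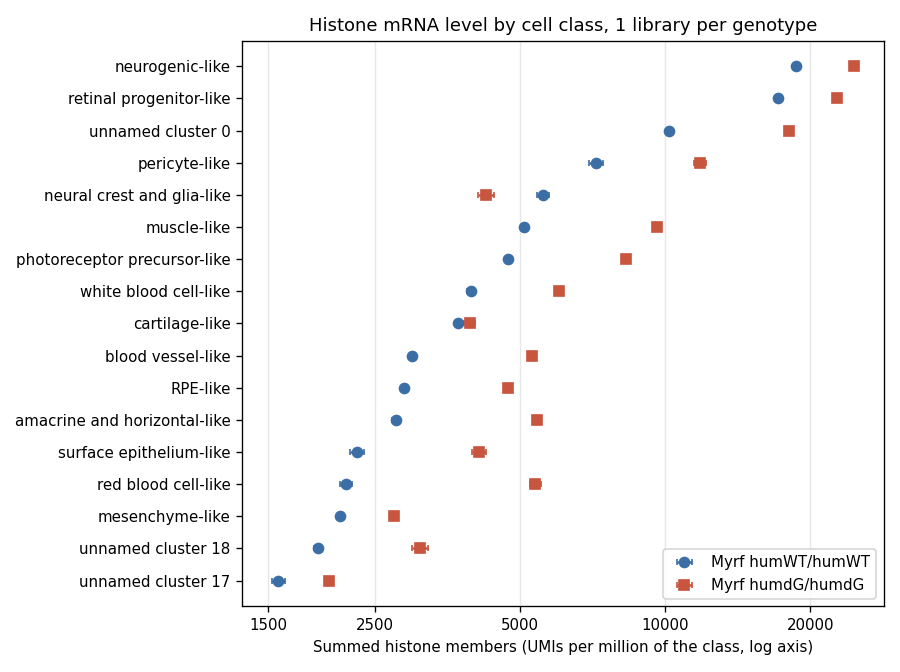
Level of the 63 histone genes (CPM, log axis) in each named class, with humWT and humdG side by side and 95% counting intervals. Neurogenic-like and retinal progenitor-like cells lead in both libraries (17112 to 24594 CPM), and humdG lies above humWT in all 14 named classes but neural crest and glia-like cells. The 3 unnamed clusters are shown by number.

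Retinal progenitor-like cells held 6.20 times the level of amacrine and horizontal-like cells in humWT and 4.19 times in humdG. The amacrine and horizontal-like class, with 536 humWT and 911 humdG cells, may also hold ganglion cells. The ganglion cell-like cluster of the finer clustering had 316 and 529 cells, and its overlap with this class was not counted. The ratio of progenitor to amacrine and horizontal-like level depended on how cells were classed and on the low levels. With histone genes kept in the clustering it was 11.4 and 7.08. In that clustering only a cluster of 1742 cells, with Ube2c and Cenpf among its leading genes, was named retinal progenitor-like. A cluster of 3050 cells led by Tafa1, as the larger progenitor cluster is here, stayed unnamed. With the lowest CPM of each gene over the named classes of its library subtracted the ratio was 12.8 and 7.21. Red blood cell-like cells, which at this age include cells without a nucleus, held 2179 CPM in humWT and 5371 CPM in humdG, near the 2760 CPM and 5417 CPM of amacrine and horizontal-like cells. The part of free RNA in the levels of the low classes was not tested.

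Level per cell was uneven within the progenitors. With each cell thinned to 1000 UMIs, 92.1% of humWT progenitors had at least 1 member UMI, beside 86.5% of humWT red blood cell-like cells (median depths before thinning 8358.5 and 4003 UMIs), so detection alone hardly separated the classes. At least 10 member UMIs were found in 30.7% of humWT progenitors and 1.62% of humWT red blood cell-like cells. In humdG these shares were 39.7% and 19.6%. The median humWT progenitor held 3 member UMIs and the 90th percentile 47.

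The class with the highest level was neurogenic-like for 45 of the 63 members in humWT and for 37 in humdG. Retinal progenitor-like cells were highest for 10 and 18. The other 8 in each library peaked elsewhere. Across 28 points (14 named classes in each of 2 libraries), the genes whose log level was most like the summed members were Hmgb2, a chromatin protein of dividing cells (Pearson's r = 0.91), Nek2, Spc25, Pbk, Hirip3, Ube2t, Dut, Fignl1, Mns1 and the replication-independent histone gene H2afz (r = 0.88). These points share libraries and the correlations are descriptions only. The summed S phase list had r = 0.79, the G2M list 0.86 and the rRNA-linked list 0.05.

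Within the progenitors, histone level followed the cell cycle genes. Cells were thinned to 2000 UMIs and grouped by the UMIs of 39 S phase genes and 52 G2M genes, neither list holding a member. By a limit of 2 UMIs nearly all progenitors fell in 1 group: 89.3% of 1763 humWT and 92.7% of 2979 humdG cells were positive for both lists, with 18047 CPM and 23403 CPM of member UMIs. Cells positive for the G2M list only held 9831 CPM and 14677 CPM. The S-only group (17 and 10 cells) and the group with neither (4 and 2 cells) were too small to carry a statement.

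Finer bins, chosen after seeing these groups, resolved the pattern. Unlike the levels above, levels in these bins are taken from the thinned counts, so each cell weighs the same. Over all progenitors this measure gave 13316 CPM in humWT and 18921 CPM in humdG. In humWT progenitors with 0 to 4 G2M UMIs the members held 2110 CPM (1989 to 2237), and with 5 to 9 they held 2754 CPM. The level was 9303 CPM with 10 to 19 G2M UMIs, 30593 CPM with 20 to 39, and 23549 CPM with 40 or more. The last bin had fewer S phase UMIs, with 161 of its 257 cells at 0 to 3 against 103 of 389 cells in the bin before it. Among cells with 0 to 3 S phase UMIs the level was 18618 CPM at 40 or more G2M UMIs and 10277 CPM at 20 to 39. At 20 to 39 G2M UMIs the S phase list divided the cells further: the level was 10277 CPM with 0 to 3 S phase UMIs, 28045 CPM with 4 to 6, 45241 CPM with 7 to 10 and 41429 CPM with 11 or more. At 0 to 4 G2M UMIs it hardly mattered, with 2068 CPM at 0 to 3 S phase UMIs and 2133 CPM at 7 to 10. Histone level was therefore highest in cells with many UMIs of both lists.

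**Figure D2:**
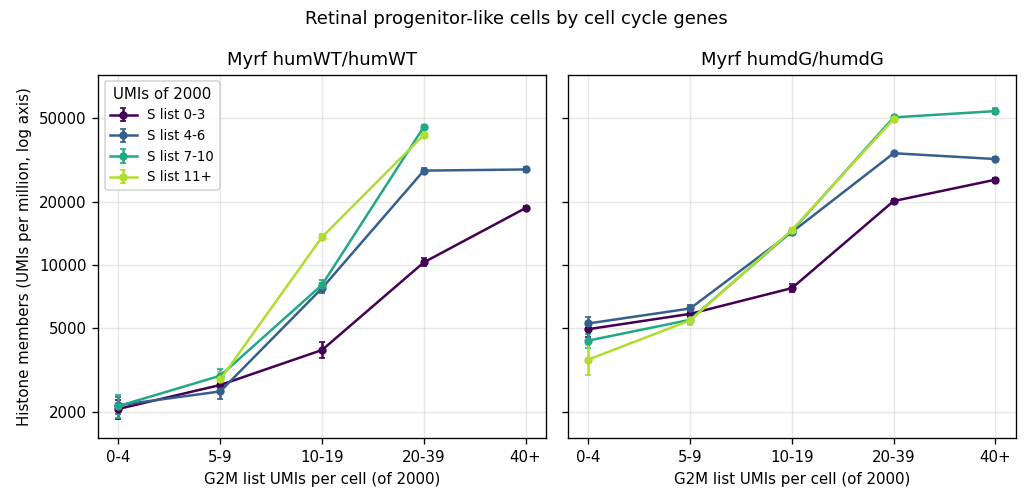
Histone level (CPM) of retinal progenitor-like cells thinned to 2000 UMIs, by bin of G2M list UMIs and of S phase list UMIs, in humWT and humdG with 95% counting intervals. Bins with under 20 cells in a library are left out; both axes of counts are per 2000 UMIs and the level axis is logarithmic. In humWT the level lies between 2068 and 2153 CPM at 0 to 4 G2M UMIs, and at 20 to 39 G2M UMIs it rises from 10277 to 45241 CPM with S phase UMIs up to 7 to 10.

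Across single progenitors, Spearman's rho between member UMIs and the G2M list was 0.54 in humWT and 0.50 in humdG, and 0.11 and 0.03 for the S phase list (1763 and 2979 cells). In amacrine and horizontal-like cells rho with the G2M list was 0.08 in humWT and 0.29 in humdG (531 and 897 cells). These values come from sparse counts at 1 fixed depth and describe the cells of each library. The 2 clusters that made up the class differed in the same direction: the progenitor cluster led by the mitotic genes Ube2c and Cenpf held 26631 CPM in humWT and 32282 CPM in humdG, and the other 9633 CPM and 15068 CPM.

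The humdG library held more histone UMIs than the humWT library. Over all kept cells the level was 5849 CPM in humWT and 12411 CPM in humdG, a ratio of 2.12. The makeup of the libraries differed as well: retinal progenitor-like cells held 12.9% of humWT and 24.4% of humdG UMIs. With the humdG class levels weighted by the humWT makeup the ratio was 1.49, and with humWT class levels the change in makeup alone gave 1.45. At the level of single genes, 46 of the 63 members tested were at least 2-fold higher in humdG, beside 4.44% of all 21028 genes with at least 20 UMIs.

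Retinal progenitor-like cells held 17112 CPM in humWT and 22669 CPM in humdG, a ratio of 1.32 (1.32 to 1.33). Of 62 members tested there, 25 were at least 2-fold higher in humdG, while 1.84% of all genes were, and 1 member was at least 2-fold lower, while 5.64% of all genes were. The median log2 ratio of humdG to humWT was 0.84 over the members and -0.03 over all genes. Neurogenic-like cells had the same ratio of 1.32, with 24 of 60 members at least 2-fold higher, beside 1.8% of all genes. The direction was thus the same in both progenitor classes.

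Several classes with lower levels had larger ratios. In photoreceptor precursor-like cells the level was 4708 CPM in humWT and 8269 CPM in humdG, a ratio of 1.76, with 40 of 62 members at least 2-fold higher (1.77% of all genes). In amacrine and horizontal-like cells it was 1.96, from 2760 to 5417 CPM, with 34 of 59 members (1.88% of all genes). Red blood cell-like cells, a class from outside the retina, had a ratio of 2.46, from 2179 to 5371 CPM, with 35 of 46 members (5.07% of all genes). The part of free RNA from other cells in this value was not tested. The absolute difference was 5556 CPM in progenitors, 2656 CPM in amacrine and horizontal-like cells and 3192 CPM in red blood cell-like cells.

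Muscle-like cells held 5086 CPM and 9595 CPM, a ratio of 1.89, with 44 of 60 members at least 2-fold higher (3.19% of all genes). Their 2 clusters differed, with ratios of 3.32 and 1.21. RPE-like cells held 2865 CPM and 4706 CPM, a ratio of 1.64, and 37 of 58 members were at least 2-fold higher (2.61% of all genes). Among their clusters, one led by Dct, Tyrp1 and the melanocyte gene Mlana went the other way, with 5367 CPM in humWT and 3764 CPM in humdG, while the other 2 had ratios of 2.70 and 2.25. The pooled class may thus hold melanocytes beside cells of the RPE, in which MYRF acts. The RPE-like value also depended on the cells with most UMIs. The summed log2 ratio was 0.72, but 1.61 with each cell thinned to 1000 UMIs and 1.52 without the 5% of cells with most UMIs. The cell with most member UMIs held 7.52% of those of the class in humWT.

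Mesenchyme-like cells, the largest class by UMIs in humWT, held 2118 CPM and 2731 CPM, a ratio of 1.29, with 25 of 60 members at least 2-fold higher (1.67% of all genes). Here the summed log2 ratio was 0.37, 1.14 with thinned cells and -2.66 once the lowest CPM of each gene over the named classes of its library was subtracted. Mesenchyme-like cells had the lowest level of the named classes in both libraries. For members lowest in this class the subtraction leaves nothing, so the -2.66 rests on what remains of the others and shows no direction. Cartilage-like cells held 3717 CPM and 3925 CPM, a ratio of 1.06, with 8 of 50 members at least 2-fold higher, below the 23.6% of all genes. That class had 1215 cells in humWT and 121 in humdG, the rRNA-linked genes in it held 249391 CPM and 72683 CPM, and the summed log2 ratio of the members was -0.49 after centring on the median gene. The part of this shift in the values of the class was not tested.

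Among the remaining classes, the ratio was 1.79 in surface epithelium-like cells (2298 CPM and 4109 CPM), 1.77 in blood vessel-like cells (2985 CPM and 5281 CPM), 1.64 in pericyte-like cells (7188 CPM and 11799 CPM) and 1.52 in white blood cell-like cells (3945 CPM and 6013 CPM). In the large unnamed cluster it was 1.78.

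In the summed level, neural crest and glia-like cells were the exception in direction, with 5577 CPM in humWT and 4240 CPM in humdG, a ratio of 0.76. Only 52 and 41 cells made up the class, 1 of them held 21.0% of the member UMIs of the class in humWT and 1 held 30.1% in humdG. In this class 3 of 38 members were at least 2-fold higher, beside 2.5% of all genes, and without Hist1h2ap the ratio was 1.10. The median log2 ratio was 0.20 over the members and -0.09 over all genes, so the members as a set did not follow the sum.

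Larger ratios at lower levels were also found inside the progenitors. At 0 to 4 G2M UMIs the level was 2110 CPM in humWT and 4723 CPM in humdG, a ratio of 2.24, and at 5 to 9 it was 2754 CPM and 5760 CPM, a ratio of 2.09. The ratio was 1.45 at 10 to 19 G2M UMIs, 1.22 at 20 to 39 and 1.27 at 40 or more. As a difference, humdG exceeded humWT by 2613 CPM at 0 to 4 and by 6622 CPM at 20 to 39, so both the smallest difference and the largest ratio were found in the cells with fewest G2M UMIs. At the same 0 to 4 G2M UMIs, amacrine and horizontal-like cells held 2280 CPM and 4915 CPM and red blood cell-like cells 1988 CPM and 4296 CPM, close to the progenitors of each library. Neurogenic-like cells held 2444 CPM and 4814 CPM in that bin. RPE-like cells lay lower, with 1835 CPM and 3457 CPM. Mesenchyme-like cells that also had 0 to 3 S phase UMIs held 1018 CPM and 1789 CPM. The share of progenitors with 0 to 4 G2M UMIs was 15.2% in humWT and 7.45% in humdG.

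The 5 histone types did not move alike. In progenitors H2B members held 1511 CPM in humWT and 3963 CPM in humdG, a ratio of 2.62 (2.59 to 2.66). H3 members had a ratio of 2.27, H4 members of 2.08 and H1 members of 1.50. The sum of the 16 H2A members was lower in humdG, with 8777 CPM and 6424 CPM, a ratio of 0.73 (0.73 to 0.74). Without Hist1h2ap the other 15 held 2792 CPM and 2947 CPM, a ratio of 1.06 (1.04 to 1.07), and 12 of the 16 H2A members were higher in humdG. The share of H2A in all member UMIs was 51.3% in humWT and 28.3% in humdG. H2A again had the lowest ratio in red blood cell-like cells, with ratios of 3.10 for H2B, 3.51 for H3, 3.38 for H4, 2.27 for H1 and 1.72 for H2A.

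**Figure D3:**
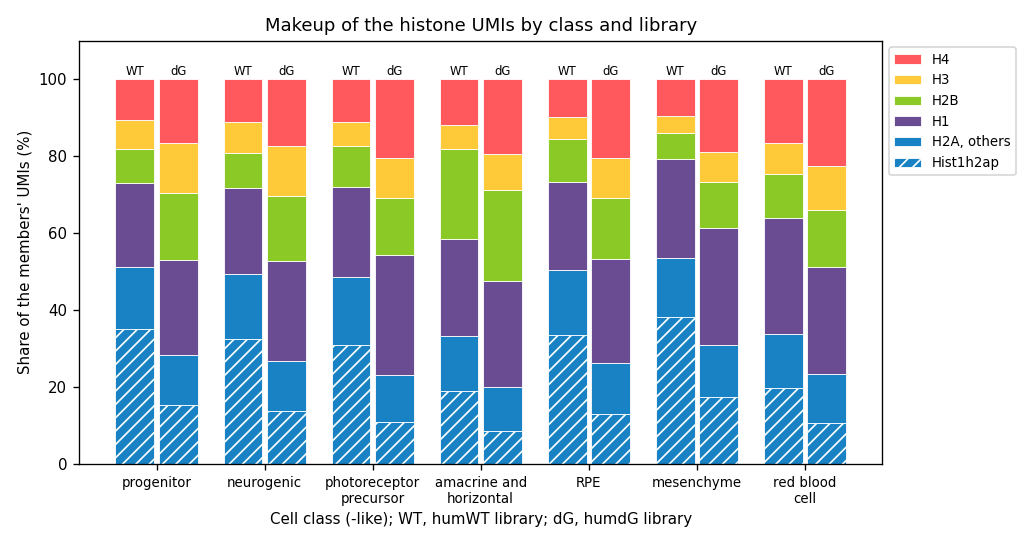
Share of the member UMIs (%, axis from 0) taken by each histone type in 7 classes, with humWT on the left and humdG on the right of each pair and Hist1h2ap hatched. In progenitors Hist1h2ap takes 35.0% in humWT and 15.3% in humdG, and in red blood cell-like cells 19.8% and 10.7%.

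H1 genes encode the linker histones. Hist1h1e held 1721 CPM in humWT progenitors and 2974 CPM in humdG, a ratio of 1.73 (1.70 to 1.75), and Hist1h1d 350.1 CPM and 656 CPM, a ratio of 1.87. Hist1h1b differed little, with 1263 CPM and 1306 CPM (1.02 to 1.05 times). The 2 most abundant linker genes therefore differed in ratio, while both were higher in humdG.

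Among H2A genes, Hist1h2ap held most of the UMIs. It held 5985 CPM in humWT progenitors and 3476 CPM in humdG, a ratio of 0.58 (0.576 to 0.586). Its share of member UMIs was 35.0% and 15.3%, and it was lower in the humdG library in all 14 named classes, from 26.1% in cartilage-like to 8.64% in amacrine and horizontal-like humdG cells. Its ratio was below 1 in 13 of the 14 classes and 1.33 in red blood cell-like cells. Hist1h2ao, with 303 and 255 UMIs in progenitors, had the lowest ratio of the members there, 0.50 (0.42 to 0.59). Hist1h2ae (1466 CPM and 1274 CPM, 0.87) and Hist1h2ab (388 CPM and 387 CPM, 1.00) were not higher in humdG. Hist1h2ap and Hist1h2ao share most of their windows with other copies, so their UMIs cannot be assigned with confidence. Without Hist1h2ap the summed ratio in progenitors was 1.72, and over the 16 members that share at most 10% of their windows it was 1.75.

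H2B genes had the highest ratios. Hist1h2bl held 37.2 CPM in humWT progenitors and 242 CPM in humdG, a ratio of 6.49 (5.96 to 7.08), and it was at least 2-fold higher in all 13 named classes in which it was tested. Hist1h2bh held 19.6 CPM and 67.2 CPM (3.42 times as much), Hist2h2bb 164 CPM and 528 CPM (3.22), Hist1h2bn 246 CPM and 738 CPM (3.00) and Hist1h2bp 17.48 CPM and 50.1 CPM (2.86). Of these Hist2h2bb shares no window with another family gene, and Hist1h2bh shares 9.37% of its windows. Hist1h2bl (66.8%), Hist1h2bn (60.6%) and Hist1h2bp (55.0%) share most of theirs, so their UMIs cannot be assigned with confidence.

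H3 and H4 genes were higher in humdG throughout their leading members. Hist1h3e held 446 CPM and 1193 CPM in progenitors (2.67), Hist1h3c 222 CPM and 468 CPM (2.11) and Hist1h3f 143 CPM and 357 CPM (2.49). Hist1h4d held 1078 CPM and 2366 CPM (2.19), Hist1h4h 373 CPM and 762 CPM (2.04) and Hist1h4c 96.1 CPM and 192 CPM (2.00). Hist1h4d, whose stem-loop and promoter are printed above and whose windows are nearly all its own, was at least 2-fold higher in 13 of 14 named classes.

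**Figure D4:**
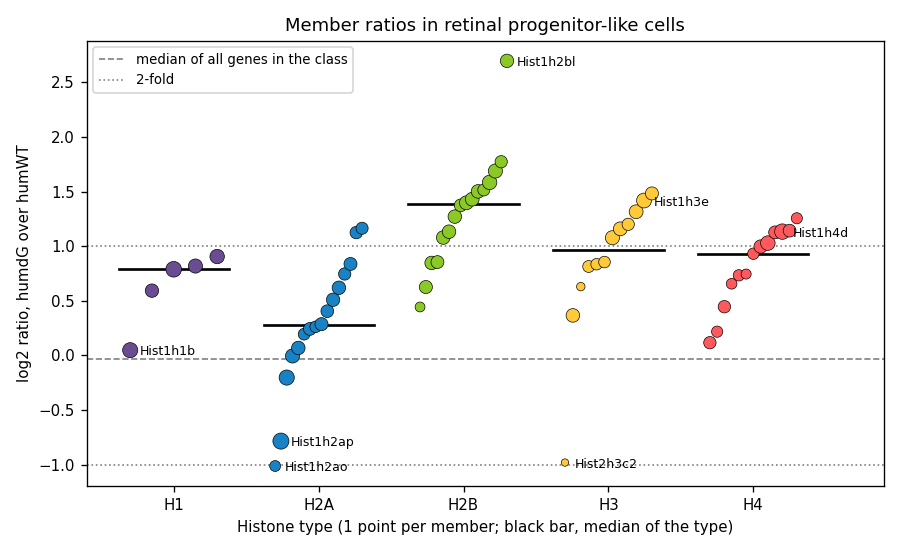
Log2 ratio of humdG to humWT in retinal progenitor-like cells, 1 point per member with at least 20 UMIs there, by histone type, with point size growing with UMIs, black bars at the median of each type and the dashed line at the median of all genes (-0.03). Hist1h2bl lies highest at 2.70 and Hist1h2ao lowest at -1.01.

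Of the 62 members with at least 20 UMIs in 1 or more of the 14 named classes, 32 were higher in humdG in each class in which they had that many, beside 10.3% of all 18604 genes so tested. At least 2-fold higher in more than 50% of those classes were 35 members and 1.69% of all genes, and 3 members were lower in most, beside 46.7% of all genes. These classes come from the same 2 libraries. By the end of the annotated transcript, the 21 members ending within 60 bases of the stem-loop had a summed ratio of 0.85 in progenitors, the 24 running further 1.77 and the 18 without a stem-loop in the transcript 1.65. Member by member the gap was smaller, with median log2 ratios of 0.66, 1.00 and 0.84. Hist1h2ap, which is 1 of the 21, held most of their UMIs. The 18 are not a single type of end. The annotated transcripts of Hist1h1b, Hist1h2bl and Hist2h2bb, for example, end with the stop codon, so a stem-loop beyond it could not be seen. That of Hist2h2be runs 2192 bases past the stop codon.

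The members nearest to or above their progenitor level in amacrine and horizontal-like cells belonged to the smaller gene clusters. Summed over both libraries, Hist3h2a held 492% of its progenitor level in amacrine and horizontal-like cells and Hist3h2ba 362%. Hist2h3c2 held 256% on only 64 UMIs in these 2 classes, Hist2h3c1 119% on 100 UMIs, Hist4h4 64.9% and Hist2h2be 50.6%. At the other end were Hist1h2bn (7.74%), Hist1h2br (8.24%), Hist1h2bg (8.95%), Hist1h3g (9.15%) and Hist1h2bb (10.2%), mostly H2B genes of the main cluster. These members were named for being highest and lowest, so their order is a description. The other members of the smaller gene clusters lay from 12.5% (Hist2h2bb) to 32.6% (Hist2h2aa1), within the range of the main cluster.

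**Figure D5:**
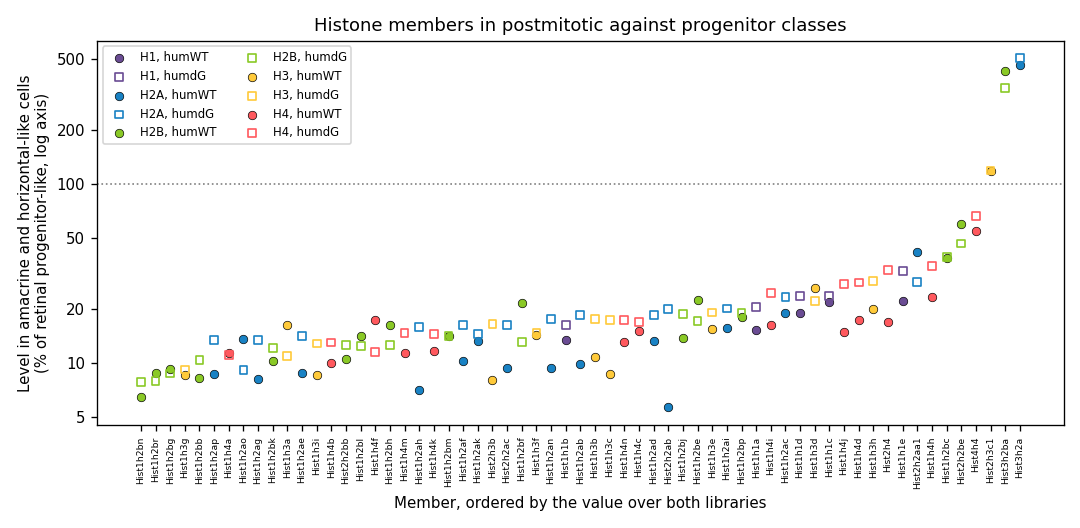
Level of each member with at least 100 UMIs in both classes together, in amacrine and horizontal-like cells as a percentage of its level in retinal progenitor-like cells (log axis), with filled circles for humWT and open squares for humdG. Members run from Hist1h2bn (7.74% over both libraries) to Hist3h2a (492%), and the dotted line marks equal levels.

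Hist3h2ba, an H2B gene of the small cluster on chromosome 11, held 462 CPM in humWT and 806 CPM in humdG amacrine and horizontal-like cells. In photoreceptor precursor-like cells it held 224 CPM and 455 CPM, and in progenitors 107 CPM and 236 CPM. Its level was 35.9 CPM and 109 CPM in red blood cell-like cells, below these 3 retinal classes of the same library. Hist3h2a, the H2A gene next to it, held 102 CPM and 133 CPM in amacrine and horizontal-like cells, 50.3 CPM and 97.0 CPM in photoreceptor precursor-like cells and 21.9 CPM and 26.3 CPM in progenitors. Both genes thus followed an order opposite to that of the summed members across these 3 retinal classes in both libraries. Together the pair made up 20.4% of the member UMIs of amacrine and horizontal-like cells in humWT and 0.756% of those of progenitors. The amacrine and horizontal-like class may also hold ganglion cells, as stated above.

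Genes that act with the histones had a summed ratio near 1 in progenitors, with single genes from 0.78 to 1.30. Of 19 genes for histone transcription, mRNA processing and chaperoning, 0 were at least 2-fold higher in humdG progenitors and their summed ratio was 1.04 (1.03 to 1.06). Slbp, which encodes the stem-loop binding protein, held 130.0 CPM in humWT and 129.7 CPM in humdG, and Npat, the coactivator of histone genes at the start of S phase, 46.2 CPM and 45.4 CPM. The highest ratio of the list was that of Lsm11, which encodes a part of the U7 snRNP that cleaves histone pre-mRNA, at 1.30 (1.06 to 1.59). The chaperone genes went both ways, Nasp with a ratio of 1.18 (1.15 to 1.22) and Asf1b with 0.78 (0.71 to 0.85). The 39 S phase genes had a summed ratio of 0.98 and the 52 G2M genes of 0.97 in progenitors, with 0 members of either list at least 2-fold higher.

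Histone genes that are also expressed outside S phase, most of which have only ordinary polyadenylated mRNAs, differed from the members as well. The 11 replication-independent genes, of which Cenpa is also in the G2M list, had a summed ratio of 1.05 in progenitors, with 0 at least 2-fold higher. H2afz, the gene for H2A.Z, held 3170 CPM in humWT and 3169 CPM in humdG, and H3f3a, a gene for H3.3, 1794 CPM and 2031 CPM. In amacrine and horizontal-like cells the list had a ratio of 1.42 and in red blood cell-like cells of 1.49, each below that of the members there.

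Other features also differed between the libraries, in both directions. The 13 mitochondrial genes had a ratio of 0.76 in progenitors. Of 8 rRNA-linked genes and RNAs without a usual poly(A) tail, 2 were at least 2-fold higher: Cdk8, with 2643 CPM and 7703 CPM (2.91), and Rmrp, the RNA of a ribonuclease, with 3.74 CPM and 12.5 CPM (3.33). Their sum was 0.94 times as high. The part of library preparation and RNA quality in the histone values was not tested.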

How the data were processed

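The deposited files hold raw UMI counts per gene and cell barcode for 2 droplet libraries, which the authors made with Cell Ranger 7.1.0 on mm10 (submitters' processing notes, which also name Seurat 4.1.1). The annotation release and whether intronic reads were counted are not given in the sources used here. The 63 members and the gene lists were chosen with earlier results of these data known.

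Cells with over 500 genes and under 15% mitochondrial UMIs were kept. The doublet caller of scanpy 1.11.5 called 0 doublets, so the 5% of each library with the highest doublet scores (851 and 956 barcodes) were removed instead. Their median depths of 3758 and 2118 UMIs were not above those of kept cells (3785 and 2624). Whether they were doublets was not tested. Cells were integrated and clustered in Seurat 5.3.0 (R 4.3.3) with all family genes left out, and clusters were named "-like" from fixed markers. At least 3 had to be 2-fold above all other cells and detected in at least 10% of the cluster. At least 1 of them had to be among its 20 leading genes. In each named cluster the markers of another class were not in excess among the leading genes. UMIs were summed per class and library, scaled to CPM, and given with exact Poisson intervals. Ratios have exact conditional binomial intervals, and shares of cells Clopper-Pearson intervals. Log2 ratios of single genes use 0.5 added UMIs and genes with at least 20 UMIs in a class; a gene was called at a 2-fold difference. With 1 library per genotype there is no replicate error, so no test was run. The steps were tested on simulated counts.

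Named members were the 3 with most UMIs of each type, the 5 highest and 5 lowest ratios in progenitors and in amacrine and horizontal-like over progenitor level (at least 100 UMIs), the genes next to the limit of 20 UMIs, and the 10 genes of most similar pattern. Hist1h4d and Hist3h2ba promoters and the other cell cycle bins were chosen after values were seen. Alternatives changed the clustering, cell filters, scaling, thinning, subtraction of the lowest level and the members included.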

Additional observations from a re-analysis of the deposited data

How the results depend on the processing

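With 1 pooled library per genotype, no value carries replicate error, and leaving out a library was not possible. No paired analysis was possible because each genotype is a single library and no test was run. A recomputed sum or level was set against the counting interval of the reported value, a median against the order-statistic interval of its members, and a count of members against 1.5 times the reported count. The order-statistic interval treats members as separate draws, although many are close copies, so it is a yardstick and not an error. For the ratios, medians and counts in retinal progenitor-like, amacrine and horizontal-like, RPE-like and mesenchyme-like cells, the level ratio of the first pair and the cell cycle groups, 108 recomputed values stayed within these bounds, 78 moved past them and 2 changed sign, both in mesenchyme-like cells. For the other named classes and the levels, 279 stayed within, 191 moved past and 10 changed sign, in cartilage-like and in neural crest and glia-like cells. The lowest level subtracted is, for each gene, its lowest CPM over the named classes of its library. Mesenchyme-like cells were the lowest named class in both libraries, so values after this subtraction show no direction there. With histone genes kept in the clustering, the retinal progenitor-like class was a cluster of 1742 cells with Ube2c and Cenpf among its leading genes. At a cluster resolution of 1.0, a cluster of 845 cells was named retinal ganglion cell-like, so the amacrine and horizontal-like class there is not the same set of cells. The alternatives that leave out Hist1h2ap, keep members sharing at most 10% of windows or leave out barcodes found in both libraries were chosen after seeing the data. The cause of these shifts was not tested.

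In retinal progenitor-like cells the summed log2 ratio of humdG to humWT, 0.41 as reported, was 0.40 at a cluster resolution of 1.0, 0.35 with histone genes kept in the clustering, 0.32 with cells gated on markers, 0.44 without doublet removal, 0.39 scaled without mitochondrial, rRNA-linked and member genes, 0.50 with cells thinned to 1000 UMIs, 0.36 with the lowest level subtracted, 0.44 centred on the median gene, 0.79 without Hist1h2ap and 0.80 over members sharing at most 10% of windows. In amacrine and horizontal-like cells the summed log2 ratio of humdG to humWT, 0.97 as reported, was 1.01 at a cluster resolution of 1.0, 1.03 with histone genes kept in the clustering, 0.85 with cells gated on markers, 1.05 without doublet removal, 0.93 scaled without mitochondrial, rRNA-linked and member genes, 1.22 with cells thinned to 1000 UMIs, 1.13 without the 5% of cells with most UMIs, 1.19 with the lowest level subtracted, 1.15 without Hist1h2ap and 1.03 over members sharing at most 10% of windows. In amacrine and horizontal-like cells the median member log2 ratio of humdG to humWT, 1.11 as reported, was 1.59 with the lowest level subtracted. The count of members at least 2-fold higher in amacrine and horizontal-like cells, 34, was 19 with cells gated on markers. In RPE-like cells the summed log2 ratio of humdG to humWT, 0.72 as reported, was 0.75 at a cluster resolution of 1.0, 0.64 with histone genes kept in the clustering, 1.09 with cells gated on markers, 0.66 without doublet removal, 0.67 with a mitochondrial share under 10%, 1.61 with cells thinned to 1000 UMIs, 1.52 without the 5% of cells with most UMIs, 0.65 with the lowest level subtracted, 0.76 centred on the median gene, 1.10 without Hist1h2ap and 1.18 over members sharing at most 10% of windows. In RPE-like cells the median member log2 ratio of humdG to humWT, 1.30 as reported, was 1.85 with cells thinned to 1000 UMIs, 1.80 without the 5% of cells with most UMIs, 1.59 with the lowest level subtracted and 1.54 over members sharing at most 10% of windows. The count of members at least 2-fold higher in RPE-like cells, 37, was 24 over members with at least 100 UMIs. In mesenchyme-like cells the summed log2 ratio of humdG to humWT, 0.37 as reported, was 0.29 at a cluster resolution of 1.0, 0.19 with cells gated on markers, 0.34 with a mitochondrial share under 10%, 0.39 scaled without mitochondrial, rRNA-linked and member genes, 1.14 with cells thinned to 1000 UMIs, 0.58 without the 5% of cells with most UMIs, -2.66 with the lowest level subtracted, 0.45 centred on the median gene, 0.78 without Hist1h2ap and 0.78 over members sharing at most 10% of windows. In mesenchyme-like cells the median member log2 ratio of humdG to humWT, 0.89 as reported, was 0.53 with cells gated on markers, 1.55 with cells thinned to 1000 UMIs, 1.04 without the 5% of cells with most UMIs, -0.45 with the lowest level subtracted and 1.08 over members sharing at most 10% of windows. The count of members at least 2-fold higher in mesenchyme-like cells, 25, was 10 with cells gated on markers and 13 with the lowest level subtracted. In cartilage-like cells the summed log2 ratio of humdG to humWT, 0.08 as reported, was -0.29 scaled without mitochondrial, rRNA-linked and member genes, -0.76 with the lowest level subtracted and -0.49 centred on the median gene. In cartilage-like cells the median member log2 ratio of humdG to humWT, 0.30 as reported, was -0.064 scaled without mitochondrial, rRNA-linked and member genes, -0.96 with the lowest level subtracted and -0.26 centred on the median gene. In neural crest and glia-like cells the summed log2 ratio of humdG to humWT, -0.40 as reported, was 0.13 without Hist1h2ap and 0.21 over members sharing at most 10% of windows. In neural crest and glia-like cells the median member log2 ratio of humdG to humWT, 0.20 as reported, was -0.78 with cells thinned to 1000 UMIs and -0.24 with the lowest level subtracted. The level of retinal progenitor-like over amacrine and horizontal-like cells in humWT, 6.20, was 5.56 at a cluster resolution of 1.0, 11.4 with histone genes kept in the clustering, 6.84 with cells gated on markers, 5.46 without doublet removal, 5.97 scaled without mitochondrial, rRNA-linked and member genes, 5.03 with cells thinned to 1000 UMIs, 6.74 without the 5% of cells with most UMIs and 12.8 with the lowest level subtracted. The level of retinal progenitor-like over amacrine and horizontal-like cells in humdG, 4.19, was 3.64 at a cluster resolution of 1.0, 7.08 with histone genes kept in the clustering, 4.74 with cells gated on markers, 3.59 without doublet removal, 4.24 with a mitochondrial share under 10%, 4.13 scaled without mitochondrial, rRNA-linked and member genes, 3.05 with cells thinned to 1000 UMIs, 4.09 without the 5% of cells with most UMIs and 7.21 with the lowest level subtracted. In progenitors positive for both lists the ratio of humdG to humWT, 1.30, was 1.26 with a limit of 3 UMIs, 1.32 with a limit of 1 UMI, 1.37 with cells weighted equally and 1.33 without doublet removal. In progenitors positive for the G2M list only the ratio of humdG to humWT, 1.49, was 1.59 with a limit of 3 UMIs, 1.59 with a limit of 1 UMI, 1.67 with cells weighted equally and 1.59 without doublet removal.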
